A study of Mus musculus with 44 samples.

Results

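The 32 genes described here are the chaperones of the endoplasmic reticulum (ER) and the genes of the unfolded protein response, and their transcripts were measured in mouse dorsal hippocampus. They were chosen by symbol, as a list proposed with results of the training and genotype comparisons of these libraries known, and all 32 were found among the 27179 genes of the count files by their Entrez identifiers. Because the list was selected on these data, the fold changes and adjusted p-values of those comparisons are given as a description and are not independent evidence that the list moves. By role they were 10 chaperones and co-chaperones of the Hsp70 and Hsp90 type, 2 lectin chaperones, 5 protein disulfide isomerases, 3 sensors, 3 transcription factors, 3 genes of the translational arm, 4 genes of ER-associated degradation and 2 subunits of the translocon.

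Secreted and membrane proteins enter the ER through the Sec61 translocon and are folded there by chaperones such as BiP (encoded by Hspa5), by the lectins calnexin and calreticulin and by disulfide isomerases. When unfolded protein accumulates, BiP leaves 3 sensors in the ER membrane, encoded by Ern1 (IRE1), Eif2ak3 (PERK) and Atf6. IRE1 splices the Xbp1 transcript into the form that encodes an active transcription factor, PERK phosphorylates the translation factor eIF2alpha and so favours translation of ATF4, and ATF6 is cut in the Golgi to release a transcription factor. XBP1 and ATF6 act on chaperone and degradation genes through the ER stress element, and ATF4 acts on Ddit3 (CHOP), Trib3 and Ppp1r15a. In neurons the same system serves the supply of receptors and secreted proteins, and eIF2alpha phosphorylation is known as a brake on the protein synthesis that long-term memory needs. Gene counts do not show the splicing of Xbp1, the phosphorylation of PERK or eIF2alpha, or the cleavage of ATF6.

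The mice were F2 animals of a C57BL/6J by 129S2/Sv cross, either wild type (WT) or homozygous for the constitutive ΔARID allele of Kdm5b, which encodes a histone lysine demethylase that is without demethylase activity in these mutants (Kdm5b Δ/Δ, called mutants). The study also reports apparently lower total KDM5B protein in them, and names it as a limit on separating demethylase loss from other functions. Naive mice taken from the home cage (0 h) were compared with mice killed 1 h or 3 h after contextual fear conditioning, in which a chamber was paired with foot shocks. No group was placed in the chamber without foot shocks, so that transfer, a new chamber, the shocks and learning cannot be told apart. Each of the 6 groups held 6 libraries, 3 from males and 3 from females by their labels, 1 mouse each. The homozygous and WT F2 mice differ in the allele and in the chromosome 1 haplotype linked to it, which cannot be told apart, and 2 members lie on that chromosome: Ppp1r15b at 1.42 Mb and Atf6 at 36.07 Mb from Kdm5b. Another 8 samples of the series, an earlier cohort, were not analysed here.

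Libraries held 40274435 to 107000233 counted fragments. The WT 3 h libraries were the deepest, with 70992683 to 107000233 fragments against 40274435 to 69151754 in WT 0 h, whereas mutant 3 h libraries held 56774704 to 69167677. The ΔARID allele leaves most of the gene transcribed, so that its count is a weak check of the labels: in CPM, which are counts scaled to library size, median Kdm5b at 0, 1 and 3 h was 87.2, 91.1 and 88.8 for WT and 80.3, 87.6 and 83.6 for mutants. Counts of Y-linked genes went against the sex label in 2 libraries, WT 1 h male 1 and mutant 3 h female 2, and counts of members that move by over 1.5 times without them are given both ways. Markers of hippocampal neurons (7 of 7) were present in every library, with summed levels of 3427 to 4653 CPM. Markers of choroid plexus (9 genes, none at 0 in any library) varied most, from 48.7 to 8240 CPM summed. Their group medians were 2156, 1077 and 2267 CPM in WT at 0, 1 and 3 h and 204, 135 and 1518 CPM in mutants. The library totals and these marker levels move with some of the comparisons below. In bulk tissue, fewer cells of a type and less RNA per cell cannot be told apart.

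The promoter sequences of the members are shown first because several hold a match to the ER stress element. A RefSeq promoter (build GRCm38.p6) was at hand for 26 of the 32 members, and the 250 bases before the start listed in that table were searched on both strands for the ER stress element, whose letters are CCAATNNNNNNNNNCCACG, and for its second form, in which the letters ATTGG and CCACG are 1 base apart. The first was found in 8 of 26 members (30.8%) and in 30 of 18458 genes with a promoter (0.163%). These 8 were Calr, Canx, Creld2, Dnajc3, Hsp90b1, Hspa5, Pdia6 and Syvn1, and Hsp90b1 held 2 copies. The second form was found in Herpud1 alone among the members, and in 7 genes in all (0.0379%). Either form was thus present in 9 of 26 members (34.6%) and in 37 of 18458 genes (0.2%). The genes with a promoter include the members. The element was searched because it is known from chaperone and degradation genes, so that nothing is read from its higher share among members. The motifs TTGCATCA and TGACGTGG were also searched: the first was in Herpud1 and in 0.959% of genes, and the second was in 0 members and in 0.71% of genes. The 4 promoters with an element whose genes were called at 3 h (below), and that of Hsp90b1 with its 2 copies, are given here on the strand of the gene, 5′ to 3′, with the fixed letters of each motif in capitals.
Hspa5, chr2:34771840-34772089, plus strand: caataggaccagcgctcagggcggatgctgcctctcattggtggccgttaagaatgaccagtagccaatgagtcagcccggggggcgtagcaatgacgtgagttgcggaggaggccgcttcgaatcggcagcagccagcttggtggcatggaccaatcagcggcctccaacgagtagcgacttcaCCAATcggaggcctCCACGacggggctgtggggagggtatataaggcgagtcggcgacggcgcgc
Creld2, chr15:88819396-88819645, plus strand: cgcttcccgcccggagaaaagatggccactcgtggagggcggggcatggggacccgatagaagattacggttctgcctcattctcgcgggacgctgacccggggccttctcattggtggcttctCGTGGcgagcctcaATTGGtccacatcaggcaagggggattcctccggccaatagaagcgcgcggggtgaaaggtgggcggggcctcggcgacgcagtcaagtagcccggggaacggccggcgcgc
Syvn1, chr19:6046326-6046575, plus strand: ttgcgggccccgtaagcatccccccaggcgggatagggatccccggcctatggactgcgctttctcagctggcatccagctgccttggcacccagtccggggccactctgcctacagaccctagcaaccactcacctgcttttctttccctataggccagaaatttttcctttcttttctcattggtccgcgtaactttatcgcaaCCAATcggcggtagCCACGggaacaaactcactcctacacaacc
Herpud1, chr8:94386179-94386428, plus strand: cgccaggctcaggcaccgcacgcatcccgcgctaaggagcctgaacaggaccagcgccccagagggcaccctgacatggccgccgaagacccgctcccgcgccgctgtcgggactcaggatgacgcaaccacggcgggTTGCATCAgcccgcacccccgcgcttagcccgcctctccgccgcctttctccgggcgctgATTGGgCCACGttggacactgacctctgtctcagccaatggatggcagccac
Hsp90b1, chr10:86705445-86705694, minus strand: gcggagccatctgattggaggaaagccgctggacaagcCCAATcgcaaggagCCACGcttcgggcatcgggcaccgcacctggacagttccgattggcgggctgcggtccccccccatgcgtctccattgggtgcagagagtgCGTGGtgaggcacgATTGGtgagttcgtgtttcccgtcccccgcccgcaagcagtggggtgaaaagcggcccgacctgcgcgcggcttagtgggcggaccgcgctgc
The element of Hspa5 lies 65 to 47 bases before the start, that of Syvn1 44 to 26 bases and that of Herpud1 52 to 42 bases before it, and the copy in Creld2 (126 to 108 bases) is on the opposite strand. The sites of the 4 other members read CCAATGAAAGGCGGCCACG in Pdia6, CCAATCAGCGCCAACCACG in Dnajc3, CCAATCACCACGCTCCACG in Canx and, on the opposite strand, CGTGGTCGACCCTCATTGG in Calr. The 26 members have 1 listed start each, and a gene with several was counted if any window held the motif. For Edem1, Pdia5 and Eif2ak3 the listed start lies within the bounds of the annotated gene, so that these windows lie in it or overlap it, and none of the 3 held a motif. A match is a sequence in this window and does not show that a factor binds there.

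In both genotypes combined, 9 of the 32 members rose by 3 h after fear conditioning and none fell. They were Sdf2l1, Hspa5, Creld2, Manf and Hyou1 among the chaperones, the sensor Atf6, the transcription factor Xbp1, and Herpud1 and Syvn1 of ER-associated degradation. The changes were small, from 10.2% for Syvn1 to 34.3% for Sdf2l1. Calls are at a Benjamini-Hochberg adjusted p under 0.05 over all genes, from edgeR's quasi-likelihood test on 24 libraries, and 1.57% of the 17926 genes tested were called (208 higher and 73 lower). All 32 members passed the filter on low counts. In this comparison 25 members were above 0 h and 7 below, the median log2 fold change of the members was 0.09 against -0.01 for all genes tested, and 15 members were higher at an unadjusted p under 0.05, which 8.09% of all genes were. As these contrasts were known when the list was drawn up, nothing is read from the difference between these shares.

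**Figure D1:**
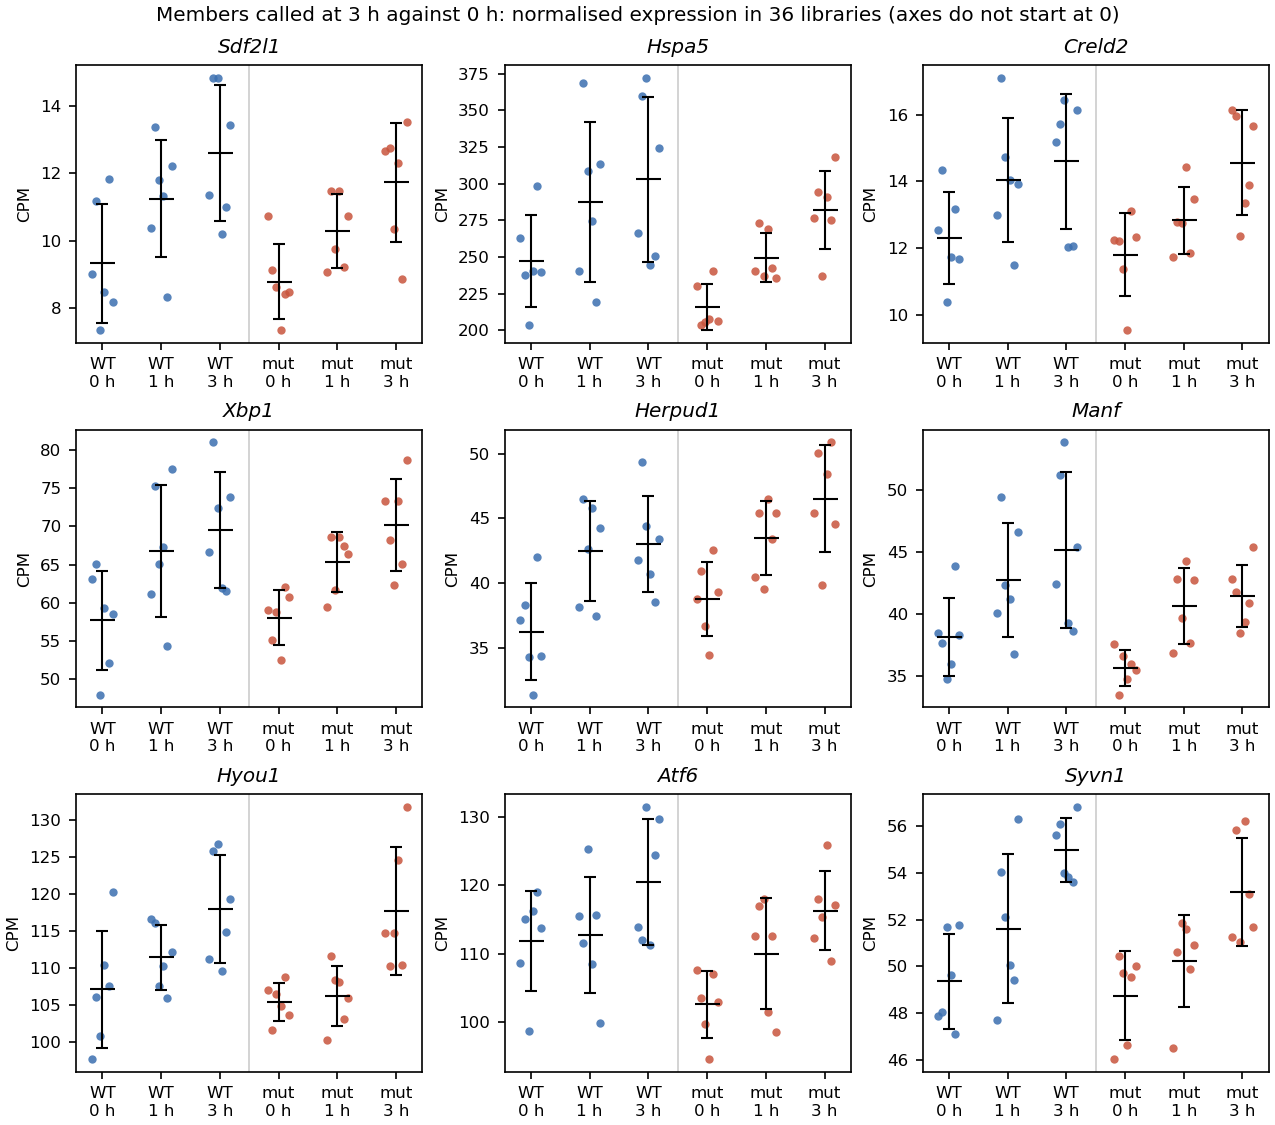
Normalised expression (CPM, vertical axes not from 0) of the 9 members called at 3 h against 0 h, in each of 36 libraries. Points are libraries (blue, WT; red, mutants), and bars are the group mean ± SD (n = 6). The 3 h points of Syvn1 lie above all 0 h points in both genotypes, whereas those of Hspa5 overlap in both.

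Hspa5 encodes BiP, the ER Hsp70 that holds the sensors inactive. Its lowest, median and highest levels were 204, 240 and 299 CPM in WT 0 h, 219, 292 and 369 CPM at 1 h and 245, 295 and 372 CPM at 3 h. In mutants they were 204, 207 and 240 CPM at 0 h, 236, 241 and 273 CPM at 1 h and 237, 284 and 318 CPM at 3 h. The medians rose in each genotype, and the 3 h range overlapped the 0 h range in both. The log2 fold change at 3 h was 0.34 ± 0.07 (SE; adjusted p = 0.0204, edgeR). The Hspa5 gene overlaps Rabepk, and whether reads were counted by strand is not given in the sources used here.

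Sdf2l1, a partner of the BiP co-chaperones, is a gene of low abundance and changed most among the called members. It was measured at 7.34, 8.73 and 11.8 CPM (lowest, median, highest) in WT 0 h and at 10.2, 12.4 and 14.8 CPM in WT 3 h, and at 7.33, 8.54 and 10.7 CPM in mutant 0 h and 8.85, 12.5 and 13.5 CPM in mutant 3 h. Its log2 fold change was 0.43 ± 0.09 (adjusted p = 0.0157, edgeR). The ranges overlapped in both genotypes. Creld2, an ER-resident isomerase-like protein, was measured at 10.4, 12.1 and 14.3 CPM (lowest, median, highest) in WT 0 h and 12, 15.5 and 16.5 CPM in WT 3 h, and at 9.53, 12.2 and 13.1 CPM in mutant 0 h and 12.4, 14.8 and 16.1 CPM in mutant 3 h, with overlap in both. Its log2 fold change was 0.27 ± 0.07 (adjusted p = 0.0355), and the call was kept in 11 of 24 fits that each left out 1 library (adjusted p up to 0.0718). Manf, a secreted ER stress protein that binds BiP and supports neurons, was measured at 34.8, 38 and 43.9 CPM (lowest, median, highest) in WT 0 h and 38.7, 43.9 and 53.9 CPM in WT 3 h, and at 33.5, 35.8 and 37.6 CPM in mutant 0 h and 38.5, 41.3 and 45.4 CPM in mutant 3 h. Its log2 fold change was 0.23 ± 0.05 (adjusted p = 0.0222). In mutants the lowest value at 3 h was above the highest at 0 h, and in WT the ranges overlapped. Hyou1, the large Hsp70 that acts as exchange factor for BiP, was measured at 97.7, 106.8 and 120 CPM (lowest, median, highest) in WT 0 h and 110, 117 and 127 CPM in WT 3 h, and at 102, 106 and 109 CPM in mutant 0 h and 110, 115 and 132 CPM in mutant 3 h, and in mutants the ranges did not overlap. Its log2 fold change was 0.15 ± 0.03 (adjusted p = 0.0271), and the call was kept in 19 of 24 fits that each left out 1 library (adjusted p up to 0.055).

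Of the other chaperones and co-chaperones, Dnajc3 (an ER J-protein, log2 fold change 0.15 ± 0.06, adjusted p = 0.22) and Dnajb11 (0.10 ± 0.04, adjusted p = 0.213) were not called. Dnajc3 had medians of 77.8 and 74.4 CPM at 0 h and 85.3 and 83.5 CPM at 3 h in WT and mutants, and Dnajb11 had 49.2 and 46.2 CPM at 0 h and 51.1 and 50.5 CPM at 3 h. Hsp90b1 (GRP94), whose promoter holds 2 ER stress elements, was at 0.05 ± 0.04 (adjusted p = 0.639), with medians of 305 and 293 CPM at 0 h against 320 and 304 CPM at 3 h. Dnajb9 (0.01) and Hspa13 (-0.03) lay within 1 SE of 0. In sum 5 of the 10 genes of this role were called, and 9 of 10 had a log2 fold change above 0.

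The lectin chaperones and the disulfide isomerases, which include the most abundant members, had no gene called by edgeR, whereas DESeq2 called Pdia4 and Pdia6. Per kb of exon, the highest members in WT 0 h were Calr (77.9 CPM per kb), Canx (76.3), Hsp90b1 (75.6), Pdia3 (61.2) and Hspa5 (56.8), and the lowest was Trib3 (0.131). Calreticulin (Calr) was at 0.12 ± 0.05 (adjusted p = 0.204), with medians of 224 and 202 CPM at 0 h and 236 and 225 CPM at 3 h. Calnexin (Canx) was at -0.01 ± 0.02 (adjusted p = 0.836). Among the isomerases, Pdia4 and Pdia6 were closest to the threshold. Pdia4 was at 0.26 ± 0.08 (adjusted p = 0.0845), and was measured at 31.6, 41.9 and 49.6 CPM (lowest, median, highest) in WT 0 h and 37.9, 48.3 and 61.2 CPM in WT 3 h, and at 33.6, 39.8 and 45.2 CPM in mutant 0 h and 42.5, 48.1 and 53.3 CPM in mutant 3 h. Pdia6 was at 0.19 ± 0.06 (adjusted p = 0.0878), and was measured at 91.2, 101 and 113 CPM (lowest, median, highest) in WT 0 h and 102, 116 and 125 CPM in WT 3 h, and at 89.8, 93.4 and 96.5 CPM in mutant 0 h and 80.1, 110 and 127 CPM in mutant 3 h. Without the 2 libraries of discordant sex it was at 0.23 and was called (adjusted p = 0.00725). Pdia3 was at 0.11 ± 0.04 (adjusted p = 0.208), with medians of 192 and 182 CPM at 0 h and 198 and 201 CPM at 3 h. P4hb (0.00) and Pdia5 (-0.06) were within 1 SE of 0.

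Of the 3 sensors, Atf6 was called at 3 h (0.14 ± 0.04, adjusted p = 0.045), a call kept in 9 of 24 fits that each left out 1 library (adjusted p up to 0.0838) and lost with the replicate block (adjusted p = 0.0537). Its levels were 98.8, 114 and 119 CPM in WT 0 h and 111, 119 and 131 CPM in WT 3 h, which overlap, and 94.6, 103 and 108 CPM in mutant 0 h against 109, 116 and 126 CPM in mutant 3 h, which do not. Ern1 was at 0.08 ± 0.06 (adjusted p = 0.582), with medians of 10 and 10.5 CPM at 0 h and 11.2 and 10.5 CPM at 3 h. Eif2ak3 was at 0.02 ± 0.03 (adjusted p = 0.833), with all group medians between 29.6 and 31 CPM.

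Of the transcription factors, Xbp1 was called and the 2 genes of the PERK arm were not. Xbp1 was measured at 48, 58.9 and 65.1 CPM in WT 0 h and 61.5, 69.5 and 81 CPM in WT 3 h, and at 52.5, 58.9 and 62.1 CPM in mutant 0 h and 62.3, 70.8 and 78.7 CPM in mutant 3 h. In mutants every 3 h library lay above every 0 h library, and in WT the ranges overlapped. Its log2 fold change was 0.27 ± 0.05 (adjusted p = 0.0136), for the transcript in both its spliced and unspliced forms. Atf4 was at -0.03 ± 0.08 (adjusted p = 0.901), with medians of 44.9 and 51.7 CPM at 0 h and 42 and 49.5 CPM at 3 h. Ddit3, which overlaps Mars1 and Mbd6, was at 0.05 ± 0.06 (adjusted p = 0.719), with medians of 15 and 14.8 CPM at 0 h and 15.3 and 15.6 CPM at 3 h. Trib3, an ATF4 and CHOP target and a pseudokinase, had the second largest log2 fold change of the members (0.42) and the largest SE (0.24, adjusted p = 0.431), on 10 to 70 counts a library. Ppp1r15a and Ppp1r15b, which direct the phosphatase that reverses eIF2alpha phosphorylation, were at 0.01 and 0.03.

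Herpud1, a membrane protein of the degradation complex, was measured at 31.4, 35.8 and 42 CPM in WT 0 h and 38.6, 42.6 and 49.4 CPM in WT 3 h, and at 34.5, 39 and 42.5 CPM in mutant 0 h and 39.9, 46.9 and 50.9 CPM in mutant 3 h. Its log2 fold change was 0.25 ± 0.05 (adjusted p = 0.0141). Syvn1 (HRD1), the ubiquitin ligase of the same complex, went from 47.1, 48.9 and 51.8 CPM to 53.6, 54.8 and 56.8 CPM in WT and from 46, 49.6 and 50.5 CPM to 51.1, 52.4 and 56.2 CPM in mutants. All 6 libraries at 3 h were above all 6 at 0 h in each genotype, and its log2 fold change was 0.14 ± 0.03 (adjusted p = 0.0109), the smallest adjusted p of the members. Syvn1 overlaps Mrpl49 and the microRNA gene Mir6988. Sel1l, the adaptor of Syvn1, was at 0.04 ± 0.04 (adjusted p = 0.712), with medians of 219 and 224 CPM at 0 h and 229 and 232 CPM at 3 h. Edem1, a mannosidase-like protein of the pathway, was at -0.08 ± 0.04 (adjusted p = 0.429), with medians of 22.2 and 22.2 CPM at 0 h and 20.8 and 20.7 CPM at 3 h. The translocon subunits Sec61a1 and Sec61b were at 0.00 and -0.02.

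**Figure D2:**
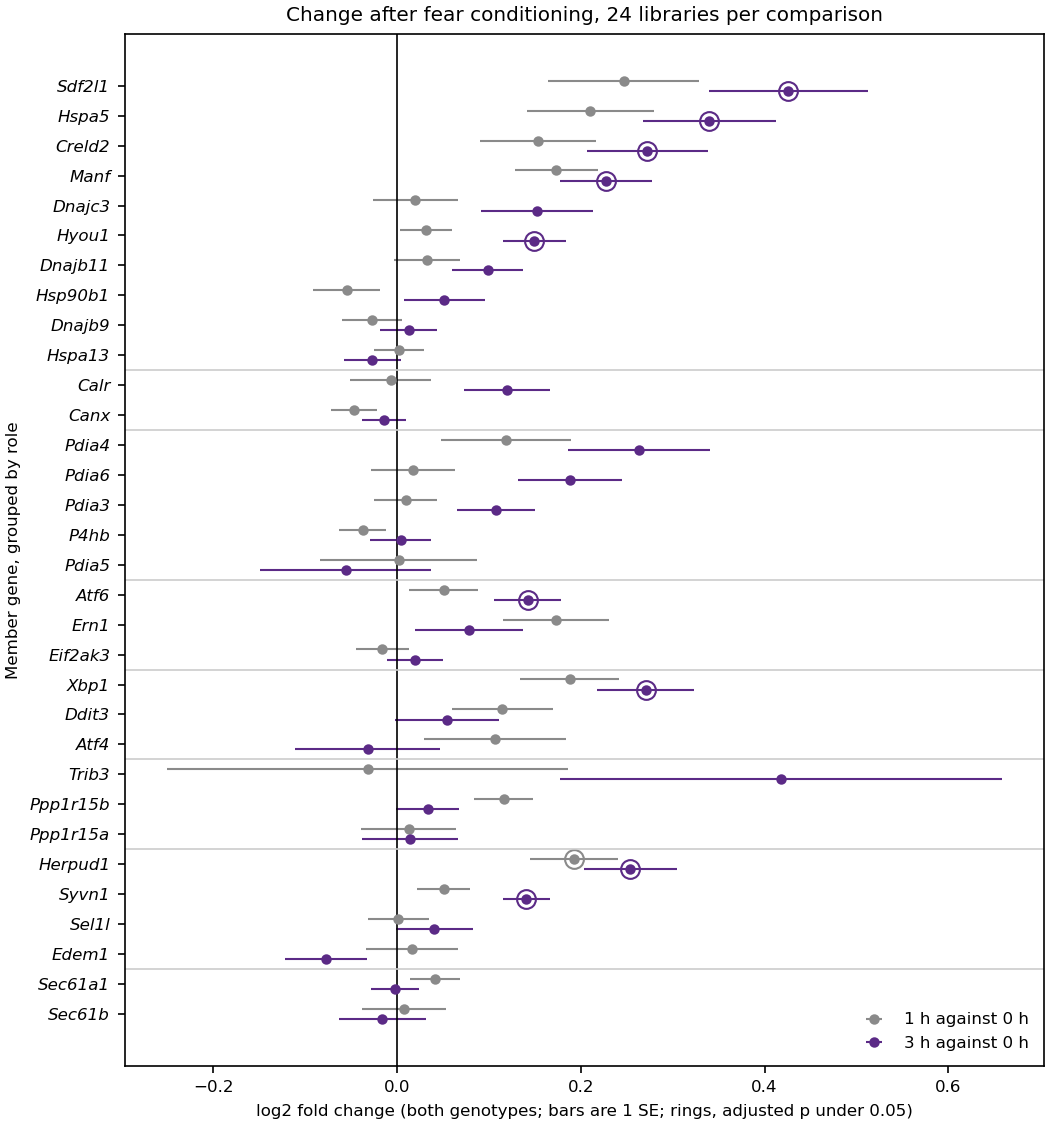
log2 fold change ± SE of the 32 members at 1 h (grey) and 3 h (purple) against 0 h over both genotypes, 24 libraries per comparison and the same 12 libraries at 0 h in both. Rings mark an adjusted p under 0.05: 9 members at 3 h and Herpud1 at 1 h.

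At 1 h, 1 member was called, Herpud1 (0.19 ± 0.05, adjusted p = 0.0474), where 1.05% of 17907 genes were called. Another 8 members were higher at an unadjusted p under 0.05, as were 7.14% of all genes. By adjusted p they were Manf (0.17 ± 0.05, adjusted p = 0.0626), Ppp1r15b (0.12 ± 0.03, adjusted p = 0.0816), Xbp1 (0.19 ± 0.05, adjusted p = 0.0956), Hspa5 (0.21 ± 0.07, adjusted p = 0.164), Sdf2l1 (0.25 ± 0.08, adjusted p = 0.169), Ern1 (0.17 ± 0.06, adjusted p = 0.171), Creld2 (0.15 ± 0.06, adjusted p = 0.294) and Ddit3 (0.11 ± 0.06, adjusted p = 0.387). The call of Herpud1 at 1 h was kept in 6 of 24 fits that each left out 1 library, with adjusted p up to 0.105. Manf and Ppp1r15b were called beside it by DESeq2, with the choroid plexus covariate and without the 2 libraries of discordant sex. Xbp1 was also called by DESeq2, and Hspa5 with the covariate. Ern1 and Ppp1r15b had lower values at 3 h (0.08 and 0.03) than at 1 h, whereas Syvn1, Hyou1 and Atf6 had higher values at 3 h (0.14, 0.15 and 0.14) than at 1 h (0.05, 0.03 and 0.05). The 1 h and 3 h comparisons share their 0 h libraries, so these values are set side by side only. In the comparison of 3 h with 1 h within a genotype, 0 members were called in WT and 0 in mutants by edgeR and by DESeq2, and edgeR called 0% of genes in each. At an unadjusted p under 0.05, 1 member was higher and 1 lower at 3 h in WT, and 8 were higher and 0 lower in mutants. Of all genes, 3.17% were higher and 4.24% lower in WT, and 4.3% were higher and 3.75% lower in mutants. In the mutant comparison 9 of 9 choroid plexus markers were also higher at 3 h, 7 of them at an unadjusted p under 0.05, with a median of 2.07. With their summed level as a covariate 10 members were higher and 3 lower (4.81% and 4.42% of all genes), and without the library of discordant sex 13 were higher and 1 lower (4.29% and 4.7%). In WT 0 were higher and 1 lower without the library of discordant sex.

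**Figure D3:**
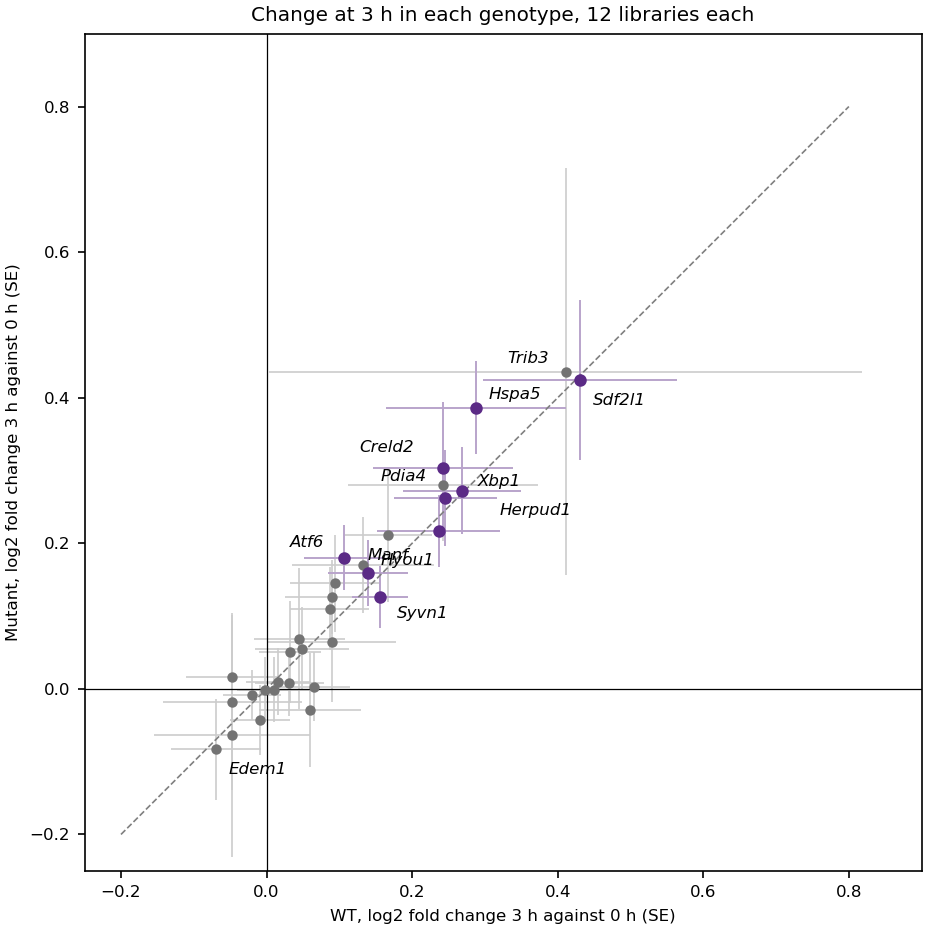
log2 fold change ± SE of the 32 members at 3 h against 0 h in WT (horizontal) and in mutants (vertical), 12 libraries each. Purple points are the 9 members called over both genotypes, which lie above 0 on both axes, and the dashed line marks equal change.

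Within a single genotype no member was called at 3 h by edgeR, in WT or in mutants, where 0% of 17438 and 0% of 17285 genes were called. At an unadjusted p under 0.05, 9 members were higher and 0 lower in WT, and 14 were higher and 0 lower in mutants, against 4.57% and 4.89% of all genes that were higher. DESeq2 called 1 member in WT (Syvn1) and 6 in mutants (Atf6, Herpud1, Hspa5, Manf, Sdf2l1 and Xbp1), and 0.424% and 0.839% of all genes. The 9 genes called over both genotypes had log2 fold changes of 0.11 to 0.43 in WT and of 0.13 to 0.42 in mutants, with the highest for Sdf2l1 in both. Hspa5 was at 0.29 ± 0.12 in WT and 0.39 ± 0.06 in mutants. At 3 h all 6 libraries lay above all 6 at 0 h for 1 member in WT (Syvn1) and for 5 in mutants (Hyou1, Manf, Atf6, Xbp1 and Syvn1), which was the case for 0.229% and 0.33% of all genes tested. When each genotype was split by labelled sex (3 libraries a time), 18 of the 32 members were higher at 3 h in WT females, 25 in WT males, 27 in mutant females and 20 in mutant males, with median differences of 0.02, 0.14, 0.12 and 0.04 on the log2(CPM + 1) scale. The 9 genes called on these same libraries were higher in each of the 4 sets, which their choice largely fixes. Their differences were 0.02 to 0.27 in WT females and 0.15 to 0.54 in WT males. In mutants they were 0.14 to 0.45 in females and 0.11 to 0.33 in males. Hspa5 was at 0.07 in WT females and 0.49 in WT males, and at 0.43 in mutant females and 0.33 in mutant males. The sexes were not compared by a test, and the share of all genes higher in each set is not given. At 1 h, 0 members were called by edgeR in WT (0% of genes) and 0 in mutants (0.312% of genes), with 3 and 7 members higher and 0 lower at an unadjusted p under 0.05, as 2.92% and 6.23% of all genes were higher. The WT count was 7 without the library of discordant sex (4.17% of all genes) and 9 with the choroid plexus covariate (3.46%). Choroid plexus markers were lower at 1 h in both genotypes (0 of 9 higher, medians of -0.63 and -0.82). DESeq2 called 0 in WT and 1 in mutants, Hspa5, and 0.0462% and 2.14% of all genes.

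The response to training was also compared between genotypes directly, as an interaction over 24 libraries. No member was called at 1 h or at 3 h by edgeR or by DESeq2, 0% of genes were called at either time by either tool, and 0 members had an unadjusted p under 0.05 in either direction (1 lower at 1 h without the library of discordant sex). Of all genes, 1.49% were higher and 2.29% lower at that level at 1 h, and 0.775% and 0.748% at 3 h. The member with the smallest p at 1 h was Edem1, with a difference (mutant response minus WT response) of -0.18 ± 0.10 (unadjusted p = 0.0694). At 3 h it was Atf6, at 0.07 ± 0.07 (unadjusted p = 0.313). For Hspa5 the difference was -0.01 ± 0.14 at 1 h and 0.10 ± 0.15 at 3 h.

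**Figure D4:**
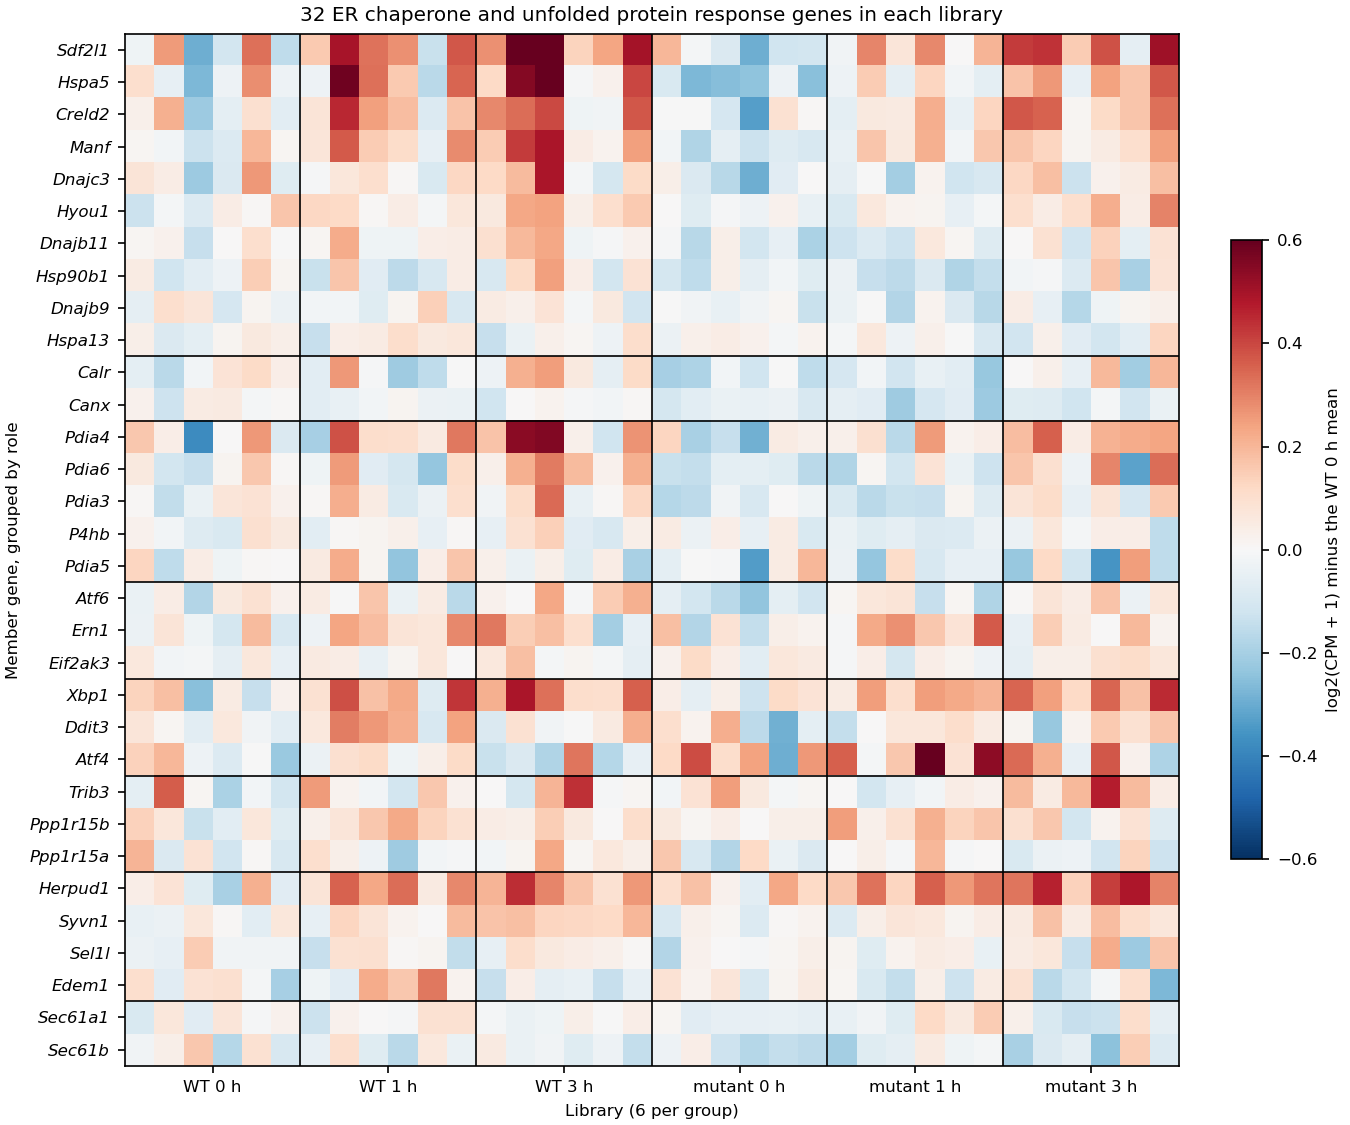
log2(CPM + 1) of each member (rows, grouped by role) in each of 36 libraries (columns, 6 per group) minus the mean of the WT 0 h libraries. Red is higher and blue lower, with the scale ending at 0.6 in each direction. Mutant 0 h libraries are mostly pale or blue in the chaperone rows, and libraries within a group differ from each other.

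Between genotypes, no member was called at 0, 1 or 3 h by edgeR or by DESeq2, and edgeR called 0%, 0% and 0.0115% of genes. Most members had a slightly lower level in mutants: 24 of 32 at 0 h, 25 at 1 h and 25 at 3 h, with member medians of -0.04, -0.07 and -0.04 on the log2 scale, where the median of all genes tested was near 0. Of all genes tested, 8793 of 17336, 8802 of 17261 and 8665 of 17394 were lower. So were 21, 18 and 17 of 29 other ER folding genes (lists described below) and, of other translocation genes, 15, 17 and 17 of 23. Other degradation genes had 16, 16 and 14 of 25 lower, and cytosolic heat shock chaperones 16, 18 and 11 of 22. Sensor relatives and eIF2 kinases had 15, 11 and 12 of 22 lower, and ATF4 target genes 6, 5 and 8 of 28. In total 19 members were lower at all 3 times, among them all 5 disulfide isomerases and both lectin chaperones, and Atf4 and Herpud1 were higher at all 3. Of the 17032 genes tested at each time, 20.3% were lower at all 3. At an unadjusted p under 0.05, 4 members were lower at 0 h (Hspa5, Atf6, Calr and Pdia6), 4 at 1 h (Pdia3, Canx, Dnajc3 and Edem1) and 0 at 3 h, against 2.83%, 4.28% and 3.09% of all genes. Without the libraries of discordant sex, 1 each at 1 h and 3 h, 7 were lower at 1 h and 1 at 3 h (5.06% and 3.65% of all genes). The 1 member higher at that level was Atf4, at 1 h, as were 4.33% of genes.

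In naive mutants Hspa5 was at -0.20 ± 0.08 (unadjusted p = 0.0215, adjusted p = 0.76) and Atf6 at -0.13 ± 0.05. At 1 h Pdia3 was at -0.14 ± 0.05 (unadjusted p = 0.0137, adjusted p = 0.429), with medians of 194 CPM for WT and 176 CPM for mutants. At 3 h the smallest p was that of Herpud1, at 0.11 ± 0.07 (unadjusted p = 0.128, adjusted p = 0.84). Atf4 was at 0.15 ± 0.10, 0.27 ± 0.10 and 0.18 ± 0.11 at 0, 1 and 3 h, with mutant medians of 51.7, 54.8 and 49.5 CPM against 44.9, 47.6 and 42 CPM in WT, and the ranges overlapped at each time. Of 28 ATF4 target genes, 22, 23 and 20 were higher in mutants and 0 were called. At each time 4 were higher and 0 lower at an unadjusted p under 0.05 (edgeR). Of all genes, 575 of 17336, 748 of 17261 and 570 of 17394 were higher at that level. The choroid plexus markers moved with these comparisons: 9 of 9 were lower in mutants at each time, with median log2 fold changes of -2.03, -2.21 and -0.64. With the summed level of these markers as a covariate, Hspa5 in naive mutants was at -0.09 and Atf6 at -0.08. With it 18 members were lower at 0 h (14 higher), 23 at 1 h (9 higher) and 27 at 3 h (5 higher). Member medians were -0.02, -0.03 and -0.04. The share of all genes below 0 in these fits is not given, so that nothing is read from these counts. At an unadjusted p under 0.05, 1, 0 and 0 members were then lower, as were 3.47%, 3.08% and 3.55% of all genes. The sign of the difference changed for 6 members at 0 h (Creld2, Ern1, P4hb, Pdia4, Ppp1r15a and Sdf2l1), 2 at 1 h (Calr and Pdia4) and 2 at 3 h (Creld2 and Xbp1). With the covariate 15 members were lower at all 3 times, which leaves out Calr, P4hb, Pdia4 and Sdf2l1. No share of all genes is given beside that count. The change at 3 h after training was as large with this covariate (Hspa5 0.33, Sdf2l1 0.42, Xbp1 0.27), and 10 members were called, the 9 and Pdia4, with 1.96% of all genes called in that fit. In that comparison 9 of 9 choroid plexus markers were higher at 3 h over both genotypes (median 0.47), and 9 of 9 in mutants (median 1.14) against 2 of 9 in WT (median -0.21), with 0 at an unadjusted p under 0.05 in each. Over both genotypes at 3 h, 1 of 7 microglia markers was higher (median -0.14), with 1 higher and 2 lower at an unadjusted p under 0.05. Endothelium had 2 of 6 higher (median -0.08), with 1 higher and 2 lower at that level, ependyma 0 of 3 (median -0.42) with none at that level, and 1 of 5 astrocyte markers was called (median of the 5, -0.01). The part of these cells in the change at 3 h was not tested.

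**Figure D5:**
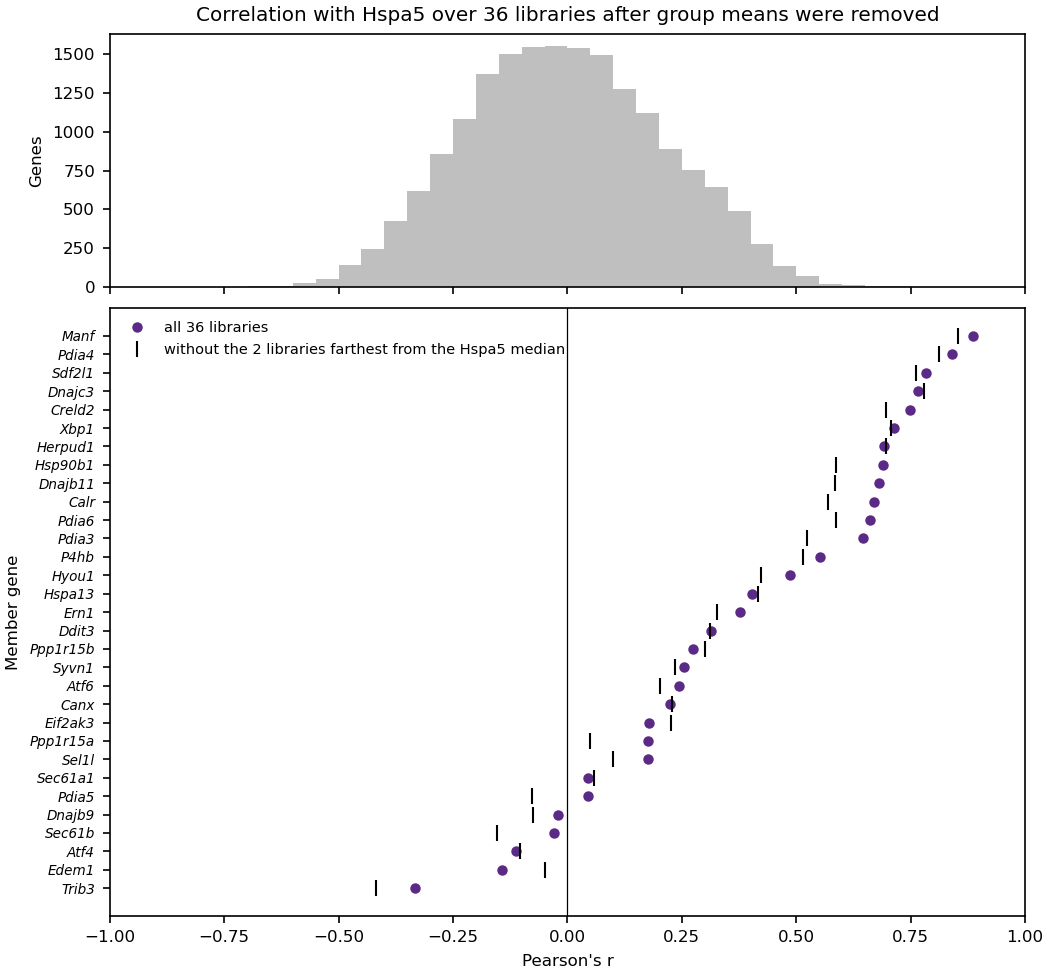
Pearson's r with Hspa5 over 36 libraries, on log2(CPM + 1) after the mean of each group was subtracted. The upper panel counts 18185 other genes by r, and the lower panel shows the 31 other members (points) and their r without the 2 libraries farthest from the Hspa5 median (ticks). The members reach from -0.33 (Trib3) to 0.89 (Manf), and 13 of them lie at 0.5 or more.

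Members also varied together among mice of the same group. This was looked at after the other results, on a measure from which the differences between groups had been removed: log2(CPM + 1) minus the mean of the library's genotype and time group. Sex was not removed and was not among the measures compared below, so that any difference between the sexes stays in these correlations. Among 18185 other genes, the 6 whose levels followed Hspa5 most closely over the 36 libraries were all members: Manf, Pdia4, Sdf2l1, Dnajc3, Creld2 and Xbp1. Of the 25 closest genes 12 were members, the others with the highest r being Mlec (malectin, an ER lectin, r = 0.70) and Castor2 (r = 0.70). In all 13 of 31 members had an r of 0.5 or more, as had 0.649% of the other genes, and the median r was 0.38 over the members and -0.01 over all genes. Libraries share depth, dissection and RNA quality, genes are not independent replicates, and members of the list share targets of the same factors.

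For Manf, Pearson's r was 0.89 (permutation p = 1e-05, adjusted over the 31 members 6.2e-05) and Spearman's rho was 0.83 (permutation p = 1e-05, adjusted p = 6.2e-05). The p-values come from 100000 permutations of the libraries within groups, with both sexes permuted together. They are two-sided, and 1e-05 is the smallest they can give. Pdia4 had an r of 0.84 and a rho of 0.84 at the same p-values. Xbp1 had an r of 0.71 (permutation p = 4e-05, adjusted p = 0.000155) and a rho of 0.72 (permutation p = 2e-05, adjusted p = 0.000103). Without the 2 libraries farthest from the Hspa5 median, WT 1 h male 2 and WT 3 h male 3, r was 0.85 for Manf, 0.81 for Pdia4 and 0.71 for Xbp1. In total 14 of the 31 members had an adjusted permutation p under 0.05, all with r above 0. They were 7 chaperones and co-chaperones (Manf, Sdf2l1, Dnajc3, Creld2, Hsp90b1, Dnajb11 and Hyou1), Calr, the isomerases P4hb, Pdia3, Pdia4 and Pdia6, Xbp1 and Herpud1. The sensors Ern1, Eif2ak3 and Atf6 had r of 0.38, 0.18 and 0.24, Syvn1 had 0.25, and Atf4 had -0.11, with adjusted permutation p-values of 0.0983 to 0.546.

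The members that followed Hspa5 within groups and those that rose at 3 h differed in part: Syvn1 and Atf6 were called at 3 h and had r of 0.25 and 0.24, whereas Pdia3 and Hsp90b1 had r of 0.64 and 0.69 and were not called. Of the 10 other measures compared in the same way, the library total had an r of -0.01 (permutation p = 0.946) and rho of 0.07 (permutation p = 0.723), and choroid plexus markers an r of 0.31 (permutation p = 0.116, adjusted p = 0.232) and rho of 0.31 (permutation p = 0.108). Markers of ependyma had the highest r, 0.41 (permutation p = 0.026, adjusted p = 0.232), with rho 0.37 (permutation p = 0.0426, adjusted p = 0.213). Immediate early genes had the highest rho, 0.39 (permutation p = 0.031, adjusted p = 0.213), with r 0.36 (permutation p = 0.052, adjusted p = 0.232). Without the 2 farthest libraries r was 0.35 for ependyma, 0.39 for immediate early genes and 0.19 for choroid plexus. The part of these cells and genes in the pattern was not tested. Mice of the same group therefore differed in how many members were high. In WT 0 h, 9 to 24 of the 32 members were above their median over the 36 libraries, with the 24 in female 2. In mutant 0 h it was 5 to 12, in WT 1 h 12 to 28 (male 2 highest), in WT 3 h 12 to 27 (male 3 highest) and in mutant 3 h 5 to 25. These 3 WT libraries, WT 0 h female 2, WT 1 h male 2 and WT 3 h male 3, were also the highest of their groups in choroid plexus markers, at 5913, 4641 and 8240 CPM summed, as was mutant 3 h male 2 (25 members, 3716 CPM). The other mutant groups differed: in mutant 1 h, with 7 to 23 members, the library highest in these markers (male 1, 1152 CPM) was the one with 7, and in mutant 0 h that library (male 1, 2686 CPM) had 11 members against 12 in male 3.

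Related genes outside the list, from lists drawn up beside it, are given here for 3 h over both genotypes. Of 29 other ER folding genes 0 were called by edgeR, with 1 higher and 1 lower at an unadjusted p under 0.05 and a median log2 fold change of -0.01. The 3 with the smallest p were Uggt1 (0.08), Tmx4 (-0.06) and Txndc11 (0.07). Of 25 other genes of ER-associated degradation 0 were called, with 2 higher and 1 lower at that level and a median of 0.01. Those with the smallest p were Ube2g2 (0.17 ± 0.05, adjusted p = 0.0961), Rnf139 (-0.08) and Aup1 (0.08). Of 23 other translocation genes 1 was called and was lower, the signal peptidase subunit Sec11c (-0.16 ± 0.03, adjusted p = 0.0214), followed by Spcs1 (-0.10) and Srp19 (-0.11). Of 28 ATF4 target genes 2 were called, both higher: Gpt2 (0.39 ± 0.08, adjusted p = 0.02) and the amino acid transporter Slc7a5 (0.23 ± 0.06, adjusted p = 0.0436), whereas Cebpb was at 0.27 (adjusted p = 0.127). Of 22 sensor relatives and eIF2 kinases 2 were called, both higher: Map3k5 (0.17 ± 0.04, adjusted p = 0.0238) and Creb3l2 (0.29 ± 0.07, adjusted p = 0.0287), with Atf6b at 0.13 (adjusted p = 0.0542). Of 22 cytosolic heat shock chaperones 2 were called, both higher: the heat shock factor Hsf1 (0.17 ± 0.04, adjusted p = 0.0297) and Dnajb5 (0.14 ± 0.04, adjusted p = 0.0478), with Hspb1 at 0.48 (adjusted p = 0.0656).

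Genes outside the list whose promoters hold an ER stress element can be set beside the 9 members that have one. Of these 9, 8 had a log2 fold change above 0 at 3 h and 4 were called (Creld2, Herpud1, Hspa5 and Syvn1), with a median of 0.15, where 8417 of 17926 genes were above 0 and 1.57% were called. Of the 17 members with a promoter in the table and no element, 13 were above 0 and 2 were called (Sdf2l1 and Xbp1), with a median of 0.04, and the other 3 called members were not in the table. All members were selected on these data, so that nothing is read from their difference from other genes with the element. Of the 28 other genes with an element, 19 passed the filter, 12 were above 0 and 0 were called by edgeR, with 4 higher and 1 lower at an unadjusted p under 0.05 and a median of 0.04. Those with the smallest p were Lrif1 (-0.12), Adcy3 (0.09) and Acacb (0.43). Among the other called members, Sdf2l1 and Xbp1 had none of the 4 motifs in the window, and Hyou1, Manf and Atf6 were not in the promoter table.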

How the data were processed

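Poly(A) RNA of 36 dorsal hippocampi was sequenced as read pairs. The deposited values are raw gene counts: per the labels and the study's methods, the authors aligned reads with STAR 2.7.8a to mm10 and counted them with featureCounts 2.0.1 under Entrez identifiers. Annotation, strand setting and treatment of multiply mapped reads are not given in the sources used here. RefSeq named 25275 of 27179 genes, and the others held 1.28% of counts. The members, gene lists and tests were chosen with earlier results of these data known. Counts were fitted with edgeR 4.0.16 (R 4.3.3) by the robust quasi-likelihood F-test on the libraries compared, with TMM scaling, filterByExpr (minimum count 10) and labelled sex as covariate, with genotype in comparisons over both genotypes. SEs are the log2 fold change divided by the square root of F. The alternatives included DESeq2 1.42.0. P-values were adjusted by Benjamini-Hochberg over all genes tested. CPM values are TMM-scaled over the 36 libraries. The rule for members with full values took those called, the sensors and transcription factors, the 10 next by p at 3 h and the member of smallest p in each genotype comparison. Canx, Dnajb9, Hspa13, P4hb, Pdia5, Ppp1r15a, Ppp1r15b, Sec61a1 and Sec61b fall outside it and were named after their values were seen. Each group's 6 libraries are separate mice, and 0 pairs held identical values. At these depths members had at least 98 counts in every library, except Trib3 with 10 or more. Correlations used Python 3.11.15 and NumPy 2.4.6.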

Additional observations from a re-analysis of the deposited data

Results flagged for a closer look

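In groups of 6 libraries, 1 library stood apart from the other 5 by the gap to its nearest neighbour over the whole range (Dixon, 95% critical value) in 8 of 138 combinations of a named member and a group. Chance alone gives about 1 in 20, or 6.9. Syvn1 was at 46.5 CPM in mutant 1 h male 1, against 49.9 to 51.9 in the others. Atf4 was at 56.9 CPM in WT 3 h female 1, against 40 to 43.8. Dnajb11 was at 57.2 CPM in WT 1 h male 2, against 47.9 to 50.4. Trib3, on few counts, was at 0.689 CPM in WT 0 h male 2, at 0.559 CPM in mutant 0 h male 3 and at 0.819 CPM in mutant 3 h female 1. Sel1l was at 248 CPM in WT 0 h male 3, against 215 to 220 in the others, and at 197 CPM in mutant 0 h male 1, against 222 to 228. No member's response differed between genotypes by the interaction test at an adjusted p under 0.05.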

How the results depend on the processing

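At 3 h over both genotypes the count of members called was 9, and the same 9 were called with RLE size factors, without or with a stricter filter on counts, without sex in the model and from 1 fit of all 36 libraries. It was 11 with DESeq2, 10 without the 2 libraries of discordant sex, 10 with the choroid plexus covariate (chosen after seeing the data), 8 with the replicate block (Atf6 at adjusted p = 0.0537) and 6 to 11 when 1 library was left out. Hspa5, Herpud1, Manf, Sdf2l1, Syvn1 and Xbp1 were called in 24 of 24 such fits, Hyou1 in 19, Creld2 in 11 and Atf6 in 9. At 1 h the count was 1, and 4 with DESeq2, 3 without the 2 libraries of discordant sex, 4 with the choroid plexus covariate and 0 to 3 when 1 library was left out: 3 without WT 1 h male 1 or WT 1 h female 2, 2 without WT 0 h female 2, 1 without WT 0 h male 1, WT 0 h male 2, mutant 0 h male 2 or mutant 0 h female 2, and 0 without any single one of the others. DESeq2 called 1 member in WT and 6 in mutants at 3 h, and 1 in mutants at 1 h, where edgeR called 0. No gene value of 55 changed sign under any alternative run. These 55 hold only 3 genotype differences (Hspa5 at 0 h, Pdia3 at 1 h and Herpud1 at 3 h), and over all members the choroid plexus covariate changed the sign of 6, 2 and 2 genotype differences at 0, 1 and 3 h. Under alternatives other than leaving out 1 library, 12 of the 55 values passed the threshold under at least 1 alternative when they had not, and 1 (Atf6 with the block) no longer did. With the choroid plexus covariate the difference in naive mutants moved from -0.20 to -0.09 for Hspa5 and from -0.13 to -0.08 for Atf6. That of Hspa5 was -0.25 to -0.14 when 1 library was left out. The replicate block did not move another call of members, and libraries that shared a sex and number had a median correlation of 0.0256 (-0.315 to 0.379 over 90 pairs), so that the numbers do not pair the mice. Over all genes, 281 were called at 3 h by edgeR, 737 by DESeq2, 452 with the replicate block, 434 with all 36 libraries in 1 fit and 529 without the 2 libraries of discordant sex, and at 1 h 188, 426 by DESeq2 and 359 without those 2 libraries. In mutants edgeR called 54 genes at 1 h and 0 at 3 h and DESeq2 370 and 145, and in WT edgeR called 0 and 0 and DESeq2 8 and 74. Between 3 h and 1 h both edgeR counts were 0, and DESeq2 gave 65 (WT) and 73 (mutants). Between genotypes edgeR called 0, 0 and 2 at 0, 1 and 3 h, DESeq2 14, 111 and 47, and edgeR without the discordant libraries 41 at 1 h and 18 at 3 h, with 5 at 1 h under the block. The planned count of protein C termini was not run. The members with r of 0.5 or more with Hspa5 numbered 13, and 12 to 14 under the alternatives, all chosen after seeing the data. Depth limits Trib3, with 10 to 70 counts a library.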
